A study of Mus musculus with 24 samples.

Results

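The comparison described here set unstressed wild-type (WT) neuron cultures against unstressed WT astrocyte cultures of the mouse, with 3 RNA sequencing libraries of each. These 6 libraries were chosen by their labels, from the 24 libraries of a study of how cells handle unfolded protein in the endoplasmic reticulum (ER). Both kinds of culture came from mice whose Perk gene (Eif2ak3) carries loxP sites, and the cells called WT had received a lentivirus with an inactive ΔCre recombinase, so that all 6 libraries come from floxed, virus-treated cells with an undeleted Perk gene. On day 14 in vitro the controls were given DMSO, the solvent of the ER stressor tunicamycin, for 24 hours. Neurons and astrocytes were kept in the same neurobasal medium with B-27 supplement. The other libraries used here, only where named, are the matching DMSO controls in which active Cre had been delivered (Perk KO), again 3 of each cell type. The labels call the replicates biological but do not say whether they were separate cultures or animals, so each p-value below measures only the spread between these libraries. What part of a dish was made up of cells of another type is not stated, and the cell type of each library was therefore checked against marker genes.

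Neurons transmit electrical signals through synapses, whereas astrocytes clear glutamate and potassium, supply lactate and lipid, and respond to injury and infection. Cells of both kinds meet unfolded protein in the ER with the kinase PERK and the sensors IRE1 and ATF6. PERK phosphorylates the translation factor eIF2, which lowers protein synthesis while the transcription factors ATF4 and CHOP (Ddit3) are made, whereas ATF6 and the IRE1 product XBP1 switch on chaperones and degradation enzymes of the ER.

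The neuron libraries held 20528319, 20300168 and 16030022 counts and the astrocyte libraries 20167574, 18197550 and 18375536 counts. Levels are given as counts-per-million values (CPM) after TMM scaling over the 6 libraries, and each difference is neurons minus astrocytes on the log2 scale, with its standard error (SE). Every adjusted p comes from edgeR's quasi-likelihood test with Benjamini-Hochberg adjustment over all 15817 genes tested, and a gene is called higher where that value was under 0.05. Genes of mitochondrial DNA held 3.26% to 4.05% of the counts in the neuron libraries and 1.32% to 1.93% in the astrocyte libraries. The chi-square statistic per gene between replicate libraries was 9.94 to 45.0, so that none of the 6 was a copy of another. Replicates 1 and 2 of the neurons and 2 and 3 of the astrocytes were the closest pairs. As a check of the labels, Eif2ak3 had 33.3 to 39.0 CPM in the WT neuron libraries and 24.0 to 26.7 CPM in the WT astrocyte libraries, against 5.22 to 5.86 CPM and 5.92 to 7.59 CPM in the Perk KO libraries of each cell type.

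Most genes of the 2 cultures differed. Of the 15817 genes tested, 11244 (71.1%) were called, 5669 (35.8%) higher in neurons and 5575 (35.2%) higher in astrocytes. Over 2-fold, 3831 genes (24.2%) were higher in neurons and 3724 (23.5%) in astrocytes, and the libraries of the 2 groups did not overlap for 75.8% of all genes. The 2 directions were equally common at small sizes but not at large ones, since 828 genes were over 32-fold higher in neurons and 142 were over 32-fold higher in astrocytes. The median log2 difference of all genes was -0.03. It was -0.22 where libraries were scaled by their totals alone, and 42.5% of the calls were then higher in neurons against 50.4% with TMM.

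Among protein-coding genes that averaged 100 counts or more, passed the test and did not overlap, 12 were taken in each direction by the size of the difference. Cck (chr9:121489824-121495694, GRCm38.p6), the neuropeptide cholecystokinin, had 817, 646 and 502 CPM in the neuron libraries and 0 counts in the 3 astrocyte libraries. It was at least 13280-fold higher in neurons, taking 3 counts over the astrocyte group as the floor. By the same floor, the neuronal transcription factors Neurod6 and Neurod2 were at least 2697-fold and 1260-fold higher, the sorting receptor gene Sorcs3 at least 2328-fold, the sialyltransferase gene St8sia3 at least 1953-fold, the neuropeptide somatostatin (Sst) at least 1673-fold, the vesicular glutamate transporter Slc17a6 at least 1548-fold, Amer3 at least 932.9-fold and Adarb2 at least 913.3-fold. Vsnl1, Arpp21 and Rph3a, with 6, 4 and 1 counts in all 3 astrocyte libraries together, complete the 12 largest.

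On the astrocyte side the 12 largest differences were those of Ifi205, Ddx60, Sp100, Gbp4, Phf11d, Iigp1, Ifi44, Tgtp1, Gbp10, Zbp1, Ifi204 and Casp4, at log2 differences of -8.51 to -7.40. Several of these belong to families of close relatives (the Ifi200 and guanylate-binding protein genes), so that the split of reads between copies is uncertain. Ddx60, an RNA helicase of antiviral defence, had 0.213, 0.573 and 0.996 CPM in the neuron libraries and 85.9, 185 and 181 CPM in the astrocyte libraries. Astrocyte library 1 lay well below the other 2 for Ddx60 and for each of the other 11 genes, and still far above every neuron library.

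**Figure D1:**
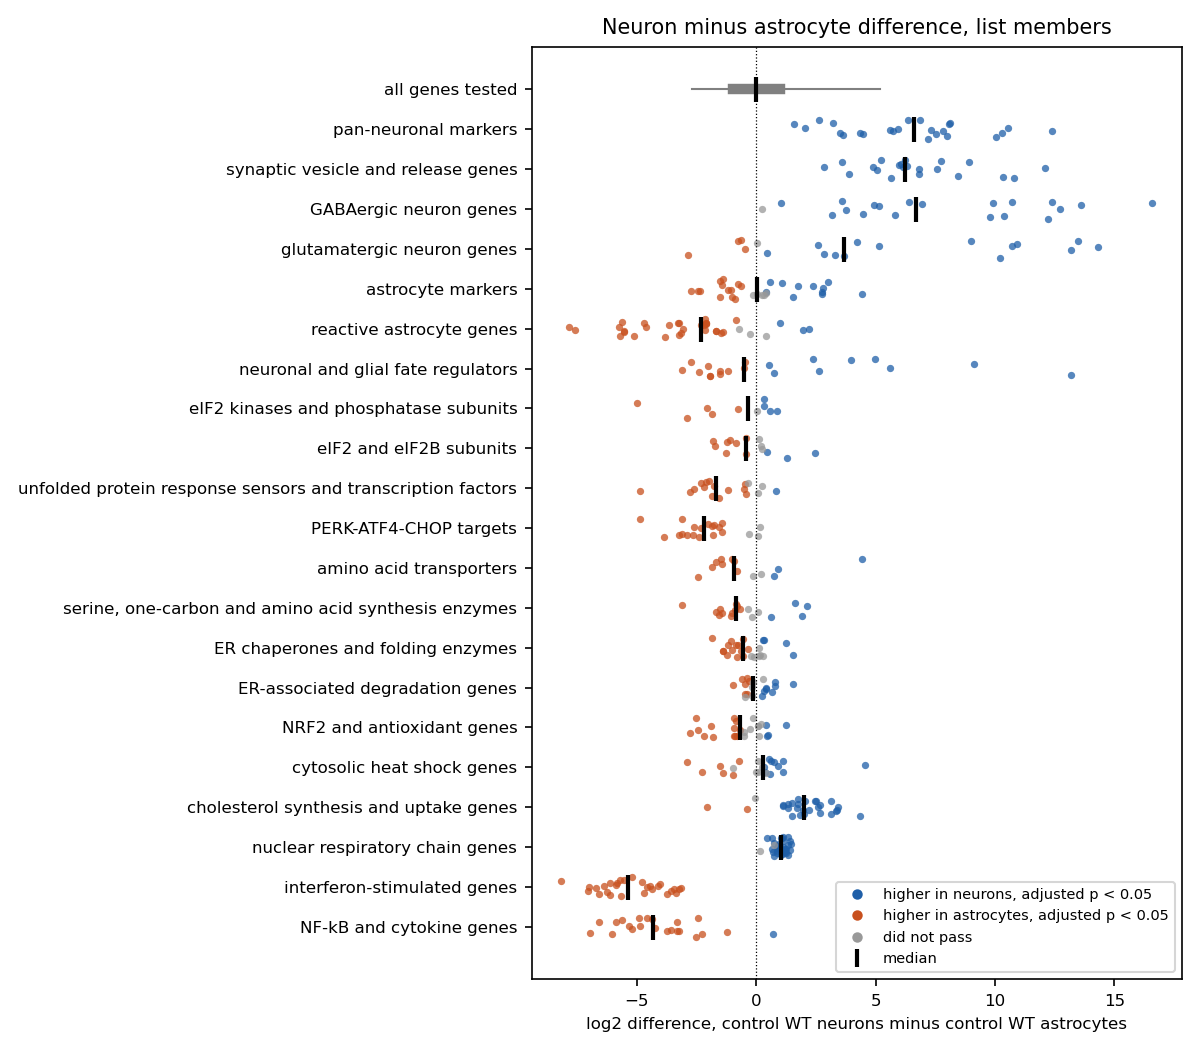
Log2 difference (x axis, control WT neurons minus control WT astrocytes) of each tested member of 21 gene lists (1 line each), with a black bar at the median of a list and, in the top line, the interquartile range (box) and the 5th to 95th percentile (line) of all genes tested. Pan-neuronal markers lie to the right (median 6.62), interferon-stimulated genes to the left (median -5.38), and astrocyte markers on both sides of 0 (median 0.05).

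Neuronal genes were high in the neuron cultures and low in the astrocyte cultures. Of 24 pan-neuronal markers, 24 were called higher in neurons, against 35.8% of all genes, with a median log2 difference of 6.62. Rbfox3, the splicing factor known as NeuN, had 163, 162 and 152 CPM in the neuron libraries and 0.957, 0.835 and 1.22 CPM in the astrocyte libraries, a log2 difference of 7.30 (SE 0.16, adjusted p = 5.17e-09). Tubb3, the neuronal beta-tubulin, had 1041, 1010 and 856 CPM against 16.2, 21.9 and 21.7 CPM (log2 difference 5.60, SE 0.18). The smallest difference in the list was that of the adhesion molecule Ncam1 (1.56), which glia also make. Summed over the list, the markers reached 13930, 13110 and 13180 CPM in the neuron libraries and 646, 701 and 738 CPM in the astrocyte libraries. The astrocyte cultures thus held 5.18% ± 0.39 of the neuron level, a ratio of means with the SDs of both groups combined (3 libraries each). In bulk RNA a lower level from fewer cells of a type cannot be told apart from less RNA of that gene per cell.

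The machinery of synapses followed the same direction. All 21 tested genes of vesicle release (of 23 listed) and all 20 ion channel genes were called higher in neurons, with medians of 6.22 and 4.95. Syp, the vesicle protein synaptophysin, had 1085, 1072 and 866 CPM against 2.37, 1.88 and 1.98 CPM, so that every neuron library was far above every astrocyte library. Of 26 postsynaptic genes, 25 were higher in neurons and 1, the AMPA receptor subunit Gria3, was higher in astrocytes. Gria3 had 50.3, 44.1 and 72.4 CPM in neurons and 169, 214 and 178 CPM in astrocytes (log2 difference -1.75, SE 0.19, adjusted p = 3.76e-05), while its relatives Gria1, Gria2 and Gria4 were 5.45, 4.32 and 2.44 higher in neurons.

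Genes of both excitatory and inhibitory neurons were detected in the neuron cultures. The vesicular glutamate transporter Slc17a7 had 331, 391 and 319 CPM and the GABA-synthesising enzyme Gad1 953, 933 and 946 CPM in the neuron libraries, against at most 0.418 and 1.32 CPM in any astrocyte library. Of 20 GABAergic genes, 19 were higher in neurons and 0 in astrocytes (median 6.67). Of 19 tested glutamatergic genes, 14 were higher in neurons and 4 in astrocytes. Among those 4 were the transcription factors Zbtb20 (log2 difference -2.86), Rorb (-0.76) and Lhx2 (-0.47), which are also known from progenitors or glia. The Rorb call was lost after correction for GC content (-0.39) and without neuron library 1 (-0.54) or 2 (-0.63) or astrocyte library 2 (-0.72) or 3 (-0.71). The summed glutamatergic list stood in astrocytes at 54.2% of the neuron level and at 28.0% without Zbtb20. Of 11 genes of monoamine and acetylcholine neurons, 4 passed the count filter. The dopamine transporter Slc6a3 had 5.27, 3.75 and 3.19 CPM in the neuron libraries, and tyrosine hydroxylase (Th) had 3.83, 3.65 and 2.52 CPM.

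Of 20 regulators of neuronal or glial fate, 9 were higher in neurons (45%, against 35.8% of all genes) and 11 in astrocytes (55%, against 35.2%). Rest, the repressor that keeps neuronal genes off outside neurons, had 11.9, 11.8 and 14.6 CPM in neurons and 56.9, 79.7 and 66.4 CPM in astrocytes (-2.41, SE 0.17, adjusted p = 2.01e-06). Myt1l, which represses other fates in neurons, had 154, 158 and 228 CPM against 0.228, 0.209 and 0.507 CPM (9.14, SE 0.31). The libraries of the 2 cultures did not overlap for either gene, as for 75.8% of all genes. Neuronal splicing factors Nova1 (2.63), Nova2 (2.38) and Srrm4 (3.96) were higher in neurons, whereas Ptbp1 (-2.01), which holds neuronal exons out, and the Id genes Id1 (-3.11), Id3 and Id4 (-1.93) were higher in astrocytes. Of the Notch effectors, Hes1 was higher in astrocytes (-1.93) and Hes5 in neurons (4.98).

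Astrocyte markers did not separate the cultures. Of 29 tested markers, 13 were higher in astrocytes, 11 were higher in neurons and 5 did not pass, with a median log2 difference of 0.05, which was -0.15 under scaling by library totals. Their summed level was 13700, 12120 and 11230 CPM in the neuron libraries and 15110, 11270 and 9953 CPM in the astrocyte libraries, with overlapping groups. The ratio of means was 98.1% ± 23.9 of the neuron level, with the SDs of both groups combined (3 libraries each). Gfap, the intermediate filament most used to identify astrocytes, had 771, 844 and 706 CPM in neurons and 665, 730 and 375 CPM in astrocytes, and the groups overlapped (log2 difference 0.39, SE 0.22, adjusted p = 0.145). Gfap passed, higher in neurons, with a replicate block (0.444) and without a count filter (0.365). Per kilobase of gene length, Gfap stood in the neuron cultures at 183 ± 16.4 FPKM (SD, n = 3), the glutamate transporter Slc1a3 at 114 ± 5.50 and the lipoprotein Apoe at 1197 ± 256, beside 519 ± 53.2 for Tubb3 and 193 ± 23.6 for Syp. The cultures labelled neurons thus held Gfap at about the level of Syp on this scale.

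Within the astrocyte list the markers divided. Higher in the neuron cultures were, among others, Slc1a2, Aldoc, Glul and Sparcl1. The glutamate transporter Slc1a2 had 378, 351 and 567 CPM in neurons and 66.6, 73.1 and 45.3 CPM in astrocytes (log2 difference 2.81, SE 0.24, adjusted p = 7.20e-06). Aldoc, an aldolase, had 840, 659 and 583 CPM against 105, 81.4 and 74.8 CPM (3.00, SE 0.19), glutamine synthetase (Glul) differed by 1.53 and the matricellular protein Sparcl1 by 2.76. None of these 4 genes overlapped between the groups, as was so for 75.8% of all genes. Higher in the astrocyte cultures were the water channel Aqp4, with 646, 497 and 315 CPM against 80.8, 61.7 and 125 CPM (-2.45, SE 0.31, adjusted p = 0.000106), the transcription factors Id3 (-2.75), Sox9 (-1.53), Nfib (-1.53) and Nfia (-1.18), clusterin (Clu, -1.42) and the gap junction protein Gja1 (-1.05). Apoe, Slc1a3, Cpe and the bicarbonate transporter Slc4a4 did not pass, although Slc1a3 passed without astrocyte library 1 (0.45). Cpe passed, higher in neurons, in several alternative settings, among them DESeq2 (0.34) and a replicate block (0.31).

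Genes known to rise in reactive astrocytes were much higher in the astrocyte cultures. Of 35 tested (of 38 listed), 29 were higher in astrocytes, against 35.2% of all genes, and the median log2 difference of the list was -2.34. Of the others, 3 were higher in neurons (Amigo2, Fkbp5 and Tgm1) and 3 did not pass (Gfap, Serpina3n and Srgn). Serpina3n passed in several alternative settings, and Gfap, higher in neurons, in those given above. Complement C3 had 65.1, 121 and 113 CPM in neurons and 5211, 2940 and 2379 CPM in astrocytes (-5.14, SE 0.37, adjusted p = 2.58e-06). Astrocyte library 1 was the highest, and every astrocyte library was far above every neuron library. Vim, the filament vimentin, had 1434, 1700 and 1284 CPM against 7164, 6000 and 5800 CPM (-2.10), ceruloplasmin (Cp) differed by -4.63, the hyaluronan receptor Cd44 by -3.64 and lipocalin Lcn2 by -2.14. The list shares members such as Gbp2, H2-D1 and Psmb8 with the interferon response described below.

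Markers of further cell types were present in both cultures. In the oligodendrocyte lineage, 12 of 18 markers passed the count filter, 9 were higher in neurons and 1, Cnp, in astrocytes. The precursor receptor Pdgfra had 32.1, 57.3 and 60.8 CPM in neurons against 3.05, 1.10 and 0.86 CPM in astrocytes (4.88, SE 0.45), the lineage factor Sox10 differed by 5.22 and the myelin protein Mbp by 4.98. Mog, Mag and Mobp, made by mature oligodendrocytes, were too low to be tested. The shared progenitor factor Olig1 had 276, 292 and 284 CPM against 221, 215 and 239 CPM, a call lost in several alternative settings.

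Of 19 markers of microglia and macrophages, 16 were tested. In astrocytes 6 were higher (37.5%, near the 35.2% of all genes) and in neurons 1, Cd68 (6.25%, against 35.8%). Their sum was 116, 111 and 77.6 CPM in the neuron libraries and 280, 84.8 and 119 CPM in the astrocyte libraries, where library 1 stood apart. The complement gene C1qa, a defining marker, had 13, 16.4 and 5.31 CPM against 52.7, 8.09 and 16.2 CPM, and Trem2, P2ry12 and Pf4 were too low to be tested. Without astrocyte library 1, 3 members were higher in astrocytes and 2 in neurons. For the ependymal list, 7 of 9 tested markers were higher in astrocytes, led by the cilium regulator Foxj1, with 98.1, 87.4 and 64.4 CPM against 631, 536 and 465 CPM (-2.71, SE 0.18). In neurons 1 was higher, Tmem212 (3.12), at a low mean of 1.17 CPM against 0.126 CPM. Of 12 endothelial markers 5 were tested and 3 were higher in astrocytes, led by Slco1a4, a transporter that astrocytes also make. In neurons 1 was higher, the adhesion molecule Pecam1 (2.64, SE 0.40), at a low mean of 1.37 CPM against 0.215 CPM. The summed list stood in astrocytes at 738% of the neuron level and at 164% without Slco1a4. Of 8 tested mural markers 5 were higher in astrocytes and 2 in neurons, Rgs5 (2.42) and Vtn (3.69). Of 9 tested fibroblast markers 4 were higher in astrocytes and 1 in neurons, Lum (3.41). Means were low for Rgs5 (5.10 CPM in neurons against 0.951 CPM), Vtn (2.00 against 0.155 CPM) and Lum (2.34 against 0.22 CPM). Summed, the mural and fibroblast lists were at 297% and 418% (308% without Fn1). The actin Acta2 had 362, 333 and 318 CPM against 935, 934 and 966 CPM, and the fibronectin gene Fn1 had 55.5, 102 and 119 CPM against 357, 570 and 597 CPM. The fibrillar collagens Col1a1, Col1a2 and Col3a1 did not pass. Several members of these lists were too low to be tested, at no more than 0.834 CPM in any of the 6 libraries. They include Cdh5, Tie1, Tek, Esam and Emcn (endothelial), Kcnj8, Abcc9 and Des (mural) and Sntn and Mia (ependymal). Whether cells of these types were present, and what share of the differences below they carry, was not tested.

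**Figure D2:**
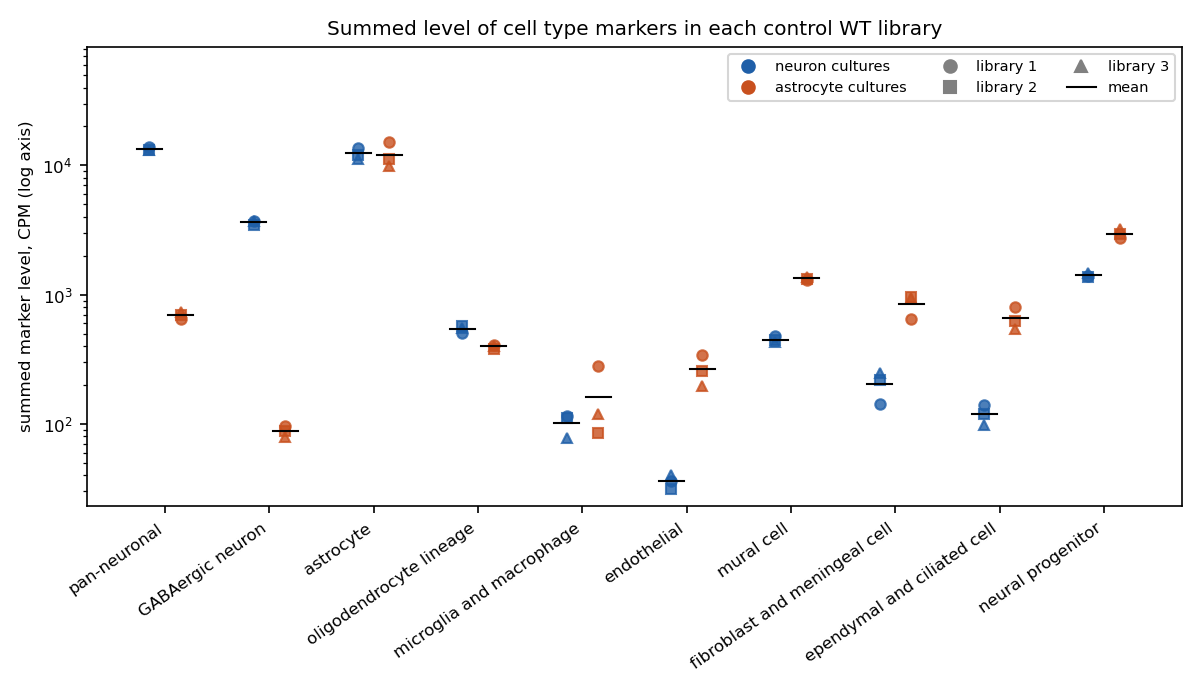
Summed level (y axis, CPM, log axis) of the marker genes of 10 cell types (x axis) in each of the 3 control WT neuron libraries (blue) and 3 control WT astrocyte libraries (orange), with a bar at the mean. Pan-neuronal markers are at 13110 CPM or more in neuron libraries and at most 738 CPM in astrocyte libraries, whereas the astrocyte markers of the 2 groups overlap.

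Turning to the stress pathways, the kinases that phosphorylate eIF2 differed by cell type. Eif2ak3, the gene of PERK, was higher in neurons, with 39.0, 37.9 and 33.3 CPM against 24.2, 26.7 and 24.0 CPM (log2 difference 0.56, SE 0.13, adjusted p = 0.00333). The groups did not overlap. Eif2ak2, the gene of the double-stranded RNA sensor PKR and itself induced by interferon, was far higher in astrocytes, with 6.33, 6.78 and 13.6 CPM against 229, 348 and 273 CPM (-5.01, SE 0.32, adjusted p = 1.09e-06). The haem-regulated kinase Eif2ak1 and the amino acid sensor Eif2ak4 (GCN2) differed by 0.32 and 0.33 in favour of neurons, both calls being lost in part of the alternative settings. Impact, an inhibitor of GCN2, was higher in neurons (0.86). Of the phosphatase subunits that reverse the mark, the stress-induced Ppp1r15a (GADD34) had 43.1, 44.1 and 44.2 CPM in neurons and 202, 355 and 441 CPM in astrocytes (-2.92, SE 0.26, adjusted p = 9.48e-06), and the constitutive Ppp1r15b differed by -0.78. Across the list of 10 kinases and phosphatase subunits, 4 were higher in neurons (40%, near the 35.8% of all genes) and 5 in astrocytes (50%, against 35.2%).

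Subunits of eIF2 and of eIF2B, the exchange factor that phosphorylated eIF2 blocks, were also uneven. Of 14 genes, 8 were higher in astrocytes (57.1%, against 35.2% of all genes) and 3 in neurons (21.4%, against 35.8%). The alpha and beta subunits of eIF2, Eif2s1 and Eif2s2, differed by -1.26 and -1.83, and the gamma subunit Eif2s3x, with 125, 120 and 131 CPM against 115, 116 and 93.8 CPM, did not pass. Of the eIF2B genes, Eif2b4 (1.27) and the catalytic Eif2b5 were higher in neurons, whereas Eif2b3 (-1.09) and Eif2b2 (-0.43) were higher in astrocytes. Eif2b5 had 138, 135 and 109 CPM against 94.2, 92.7 and 93.8 CPM (0.45, SE 0.12, adjusted p = 0.00777), without overlap, but it did not pass under scaling by library totals (0.25). The Eif2b2 call was lost without neuron library 2 (-0.42) or 3 (-0.27) or astrocyte library 1 (-0.40). Bzw2, a regulator of start codon choice, was higher in neurons (2.47), and Eif5, the activator of eIF2 hydrolysis, in astrocytes (-1.73).

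Targets of the PERK branch stood at a higher level in unstressed astrocytes. Of 20 genes, 17 were called higher in astrocytes and 0 in neurons, where 35.2% of all genes were higher in astrocytes. All 17 were over 2-fold, against 23.5% of all genes, and the median log2 difference was -2.18. The summed level was 894, 895 and 872 CPM in the neuron libraries and 2055, 2844 and 3227 CPM in the astrocyte libraries, with library 1 the lowest. Without astrocyte library 1 the same number, 17, was higher in astrocytes. The transcript of the transcription factor that leads the branch, Atf4, had 253, 237 and 266 CPM in neurons and 233, 337 and 391 CPM in astrocytes. Its groups overlapped and it did not pass (-0.35, SE 0.18, adjusted p = 0.109), although it passed in 5 of the alternative settings, under library totals (-0.54), upper quartile factors (-0.45), no count filter (-0.37) and GC correction (-0.65) and without astrocyte library 1 (-0.54). ATF4 is known to be controlled mainly at translation, which these counts do not measure.

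Among the targets, Ddit3, the gene of the transcription factor CHOP, had 50.4, 46.3 and 49.2 CPM in neurons and 122, 167 and 207 CPM in astrocytes (-1.77, SE 0.18, adjusted p = 2.54e-05). The pseudokinase Trib3 had 6.17, 4.80 and 5.05 CPM against 70.4, 72.2 and 95.3 CPM (-3.89, SE 0.18, adjusted p = 1.78e-07). Atf3, a stress-induced repressor, had 8.30, 6.0 and 6.57 CPM against 126, 234 and 259 CPM (-4.89, SE 0.30, adjusted p = 8.72e-07). For these 3 genes every astrocyte library lay above every neuron library. Chac1, which degrades glutathione, had 26.8, 30.6 and 28.2 CPM against 100, 160 and 186 CPM (-2.39, SE 0.22, adjusted p = 1.12e-05). The secreted stress signal Gdf15 differed by -3.26, cystathionine gamma-lyase (Cth) by -3.10, the ATF4 partner Cebpg by -1.84, the mTORC1 inhibitor Sesn2 by -2.04 and the pro-apoptotic Bbc3 (PUMA) by -1.43. The 3 genes that did not pass were Asns, Vldlr and Ddit4. Asparagine synthetase, Asns, had 226, 227 and 205 CPM in neurons and 154, 223 and 253 CPM in astrocytes (0.06, SE 0.17, adjusted p = 0.761).

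Promoter sequences are shown for these targets because the C/EBP-ATF response element, read here as TGATGNAA on either strand, is the site that ATF4 dimers are known to bind. It was found in the 250 bases before the start of 6 of the 17 targets with a RefSeq promoter (35.3%), against 3.91% of the 27025 mouse genes with one, and in 2 of 20 ER chaperones and 1 of 23 interferon-stimulated genes. A match is a description of the letters, not evidence of binding. The 3 matched targets with the highest mean level are given 5′ to 3′ on the strand of the gene with the element in capitals, from GRCm38.p6 at chr6:7693210-7693272 (Asns, minus strand), chr1:191183396-191183483 (Atf3, minus strand) and chr2:119351009-119351096 (Chac1, plus strand). Asns, which did not differ, and Atf3 and Chac1, which did, all hold the element, in Atf3 and Chac1 on the opposite strand.
Asns: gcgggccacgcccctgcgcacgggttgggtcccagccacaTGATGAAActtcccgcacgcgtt
Atf3: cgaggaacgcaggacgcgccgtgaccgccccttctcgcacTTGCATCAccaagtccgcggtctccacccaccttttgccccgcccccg
Chac1: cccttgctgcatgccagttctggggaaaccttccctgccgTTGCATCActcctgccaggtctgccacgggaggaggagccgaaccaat

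Sensors and transcription factors of the unfolded protein response were mostly higher in astrocytes, 14 of 18 tested (of 20 listed), and 1, Atf6b, was higher in neurons (0.82). Of the 18, 6 (Atf3, Atf5, Cebpb, Cebpg, Ddit3 and Nupr1) are also counted among the PERK targets. Ern1, the gene of IRE1, had 7.66, 7.82 and 10.2 CPM in neurons and 29.4, 36.2 and 36.5 CPM in astrocytes (-2.0, SE 0.17), and Atf6 differed by -0.52. Xbp1, whose transcript IRE1 splices, had 96.4, 89.7 and 75.0 CPM against 66.0, 83.3 and 96.7 CPM and did not pass (0.09, SE 0.16, adjusted p = 0.646). Splicing of Xbp1 is not given by gene counts.

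ER chaperones were higher in astrocytes by smaller steps. Of 24 genes, 14 were higher in astrocytes (35.2% of all genes were) and 4 in neurons (35.8%), with a median of -0.56. Hspa5 (BiP), the main ER chaperone, had 572, 551 and 562 CPM in neurons and 1094, 1582 and 1781 CPM in astrocytes (-1.40, SE 0.17, adjusted p = 8.56e-05). The neuron libraries were nearly level, and astrocyte library 1 was the lowest of its group. Hsp90b1 (GRP94) had 226, 185 and 281 CPM against 483, 452 and 452 CPM (-1.0, SE 0.15, adjusted p = 0.000321), and the lectin chaperone Canx differed by -0.62. Its partner Calr went the other way, with 620, 615 and 523 CPM against 495, 441 and 463 CPM (0.33, SE 0.11, adjusted p = 0.0269), without overlap, but this call was lost in several alternative settings, as was that of Hyou1 (0.28). Fkbp2 (1.54) and Ero1lb (1.24) were the other 2 higher in neurons. Sdf2l1, an ATF6 target, had 15.6, 15.5 and 10.8 CPM against 11.3, 11.1 and 12.6 CPM, and it did not pass (0.26, SE 0.18, adjusted p = 0.224). Pdia6 did not pass either.

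Chaperone promoters are shown because this list is the known home of the ER stress response element, read here as CCAAT, any 9 bases and CCACG on either strand, which ATF6 binds together with NF-Y. It was found in 7 of 20 chaperone promoters of RefSeq (35%), against 0.13% of all 27025 genes, and in 0 of the 17 PERK targets and 0 of the 23 interferon-stimulated genes. The element is in capitals, in Calr and Hsp90b1 on the opposite strand, and sequences are from GRCm38.p6 at chr2:34771985-34772083 (Hspa5, plus strand), chr8:84847035-84847133 (Calr, minus strand) and chr10:86705493-86705591 (Hsp90b1, minus strand). Hspa5 and Hsp90b1 were higher in astrocytes and Calr in neurons, with the full element in all 3.
Hspa5: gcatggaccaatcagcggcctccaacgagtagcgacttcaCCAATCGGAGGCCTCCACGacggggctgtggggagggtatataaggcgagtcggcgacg
Calr: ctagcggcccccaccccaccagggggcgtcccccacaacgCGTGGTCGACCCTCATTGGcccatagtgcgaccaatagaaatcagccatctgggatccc
Hsp90b1: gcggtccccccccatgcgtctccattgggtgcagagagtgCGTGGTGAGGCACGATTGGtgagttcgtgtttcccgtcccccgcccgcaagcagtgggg

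The degradation and translocation arms showed no common direction. Of 20 tested ER-associated degradation genes, 8 were higher in neurons (40%, near the 35.8% of all genes) and 7 in astrocytes (35%, near 35.2%). Their median was -0.16, and the count in neurons dropped to 3 under scaling by library totals. Herpud1, a stress-induced component, had 49.8, 55.9 and 56.5 CPM against 81.5, 113 and 128 CPM (-0.99, SE 0.17, adjusted p = 0.000598). The ubiquitin ligase Syvn1 was higher in neurons (0.65). Of 22 tested targets of IRE1 and XBP1, 11 were higher in astrocytes (50%) and 5 in neurons (22.7%). Dnajb9, a BiP cofactor, had 46.3, 36.5 and 49.0 CPM against 77.3, 89.2 and 93.7 CPM (-0.98, SE 0.14, adjusted p = 0.000246), but the difference was -0.20 and did not pass after correction for GC content. Of 32 genes of N-glycan synthesis, the process that tunicamycin blocks, 12 were higher in neurons (37.5%) and 9 in astrocytes (28.1%). Their median was -0.01. Stt3a, a catalytic subunit of the oligosaccharyltransferase, differed by -0.99, but by -0.19 and without passing after correction for GC content. The mannosyltransferase Alg2 differed by 2.18.

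**Figure D3:**
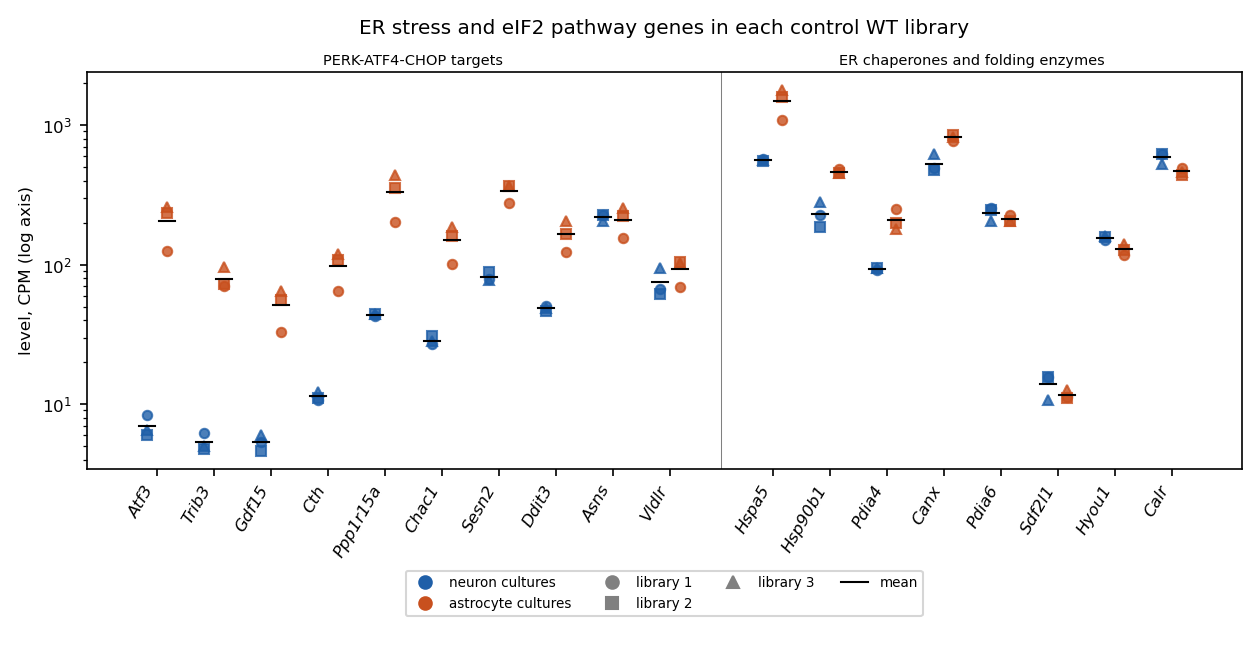
Level (y axis, CPM, log axis) of 10 targets of the PERK branch and 8 ER chaperones in each control WT neuron library (blue) and astrocyte library (orange), with a bar at the mean. Atf3, Trib3 and Chac1 are higher in every astrocyte library, Asns and Vldlr overlap between the cultures, and Calr is higher in every neuron library.

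Genes of amino acid supply, some of which ATF4 is known to regulate, were in part higher in astrocytes. The part of ATF4 in these differences was not tested. Of 13 tested amino acid transporters, 8 were higher in astrocytes (61.5%, against 35.2% of all genes) and 3 in neurons (23.1%, against 35.8%). The cystine transporter Slc7a11 had 39.5, 26.3 and 49.0 CPM in neurons and 130, 269 and 230 CPM in astrocytes (-2.46, SE 0.30), and its heavy chain Slc3a2 differed by -1.68. In neurons the serine and glycine carrier Slc7a10 was higher (4.42, at 3.09 CPM or less). Of 18 enzymes of serine, one-carbon and amino acid synthesis, 11 were higher in astrocytes (61.1%) and 4 in neurons (22.2%). Phgdh (-0.91) and Mthfd2 (-1.58) were among the 11, and the aspartate aminotransferase Got1 (2.10) led the 4. Of 20 aminoacyl-tRNA synthetases, 10 were higher in astrocytes (50%) and 2 in neurons (10%).

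Other stress systems were split. Nfe2l2, the gene of the antioxidant regulator NRF2, had 72.3, 55.8 and 61.1 CPM in neurons and 441, 434 and 440 CPM in astrocytes (-2.80, SE 0.13). Of 25 genes of the NRF2 list, 13 were higher in astrocytes (52%, against 35.2% of all genes). Haem oxygenase, Hmox1, had 159, 194 and 170 CPM against 643, 1017 and 1395 CPM (-2.55, SE 0.26). Mitochondrial superoxide dismutase (Sod2, 1.24) was among 4 genes of the list higher in neurons. Of 22 cytosolic heat shock genes, 10 were higher in neurons (45.5%, against 35.8% of all genes) and 6 in astrocytes (27.3%, against 35.2%). The constitutive Hspa8 had 3308, 3172 and 2665 CPM against 1667, 1562 and 1617 CPM (0.92, SE 0.12), whereas the small heat shock proteins Hspb8 (-2.93) and Cryab (-1.51) and the co-chaperone Bag3 (-2.26) were higher in astrocytes. The stress-inducible Hspa1a and Hspa1b, near-identical copies whose reads may be split between them, were at 12.6 CPM or less in every library and did not pass. Translation factors (13 of 35 higher in neurons, 8 in astrocytes) and proteasome subunits (14 and 8 of 38) were higher in neurons about as often as all genes (35.8%), and had medians of 0.10 and 0.15 that turned to -0.10 and -0.05 under scaling by library totals. Eef1a2, the neuronal elongation factor, was 6.5 higher in neurons. Of 82 ribosomal protein genes, whose reads pseudogenes may share, 21 were higher in astrocytes and 5 in neurons, and 40 were higher in astrocytes under scaling by library totals.

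Interferon-stimulated genes were far higher in astrocytes than in neurons. All 28 were higher in astrocytes (35.2% of all genes were), all over 2-fold, and the median difference was 41.6-fold (-5.38 on the log2 scale). Their sum was 723, 826 and 752 CPM in the neuron libraries and 11990, 19130 and 19160 CPM in the astrocyte libraries. Isg15, a ubiquitin-like antiviral protein, had 8.35, 10.3 and 10.6 CPM against 630, 1219 and 1268 CPM (-6.74, SE 0.31, adjusted p = 1.73e-07). The translation inhibitor Ifit3, whose reads may be shared with close copies, had 22.7, 25.4 and 35.2 CPM against 1530, 2419 and 2364 CPM (-6.25, SE 0.27, adjusted p = 1.03e-07). B2m, the light chain of MHC class I, had 156, 177 and 166 CPM against 1382, 1795 and 1911 CPM (-3.35, SE 0.15). Astrocyte library 1 was lowest of its group for these 3 genes, and still above every neuron library. The signalling components were higher too, with the transcription factors Stat2 (-3.75), Irf9 (-3.59) and Irf7 (-6.59) and the RNA sensors Ifih1 (-6.13) and Ddx58 (-4.81). Per kilobase, B2m (1972 FPKM), Isg15 (1375) and Bst2 (1111) were among the 15 highest genes of the astrocyte cultures. The sum of microglia markers, given above, was highest in astrocyte library 1, where the interferon genes were lowest of the group. With 3 libraries, a link between the 2 was not tested, nor was the source of the interferon transcripts. Without astrocyte library 1 the median of the interferon list was -5.60, again with 28 of 28 higher in astrocytes.

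The promoters of 3 of the most abundant members are shown because they hold the interferon-stimulated response element, read here as GAAA, any 2 bases and GAAA again on either strand, which interferon-activated factors are known to bind. It was present in 11 of 23 promoters of the list in RefSeq (47.8%), against 3.46% of all 27025 genes, and in 1 of 17 PERK targets and 1 of 20 chaperones. Matches are in capitals, and overlapping matches run together in Isg15. Sequences are from GRCm38.p6 at chr4:156200835-156200924 (Isg15, minus strand), chr19:34583367-34583456 (Ifit3, plus strand, matches on the opposite strand) and chr2:122147508-122147597 (B2m, plus strand).
Isg15: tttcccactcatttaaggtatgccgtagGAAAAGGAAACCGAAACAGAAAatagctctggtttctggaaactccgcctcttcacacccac
Ifit3: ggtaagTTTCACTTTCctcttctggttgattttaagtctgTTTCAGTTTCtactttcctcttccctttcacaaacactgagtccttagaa
B2m: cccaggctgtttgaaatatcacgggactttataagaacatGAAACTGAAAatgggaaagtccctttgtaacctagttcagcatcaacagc

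Genes of NF-kB and cytokine signalling shared this direction. Of 22 tested (of 24 listed), 21 were higher in astrocytes and 1 in neurons, with a median of -4.31. The chemokine Ccl2 had 3.14, 4.54 and 7.24 CPM in neurons and 210, 385 and 384 CPM in astrocytes (-6.05, SE 0.36, adjusted p = 7.77e-07). Csf1, the growth factor of microglia, had 86.2, 98.7 and 108 CPM against 1389, 2027 and 2098 CPM (-4.24, SE 0.20), and the adhesion molecule Vcam1 differed by -3.75. Subunits of the factor itself were higher in astrocytes as well, with differences of -3.59 for Nfkb1, -4.89 for Nfkb2, -3.34 for Relb and -2.29 for Rela. The exception was the alarmin Il33, with 3.88, 3.55 and 3.52 CPM against 2.78, 1.83 and 2.08 CPM (0.71, SE 0.26, adjusted p = 0.0329), a call lost under several alternative settings. Il6 had at most 0.133 CPM in a neuron library and 2.74, 8.66 and 12.5 CPM in the astrocyte libraries.

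**Figure D4:**
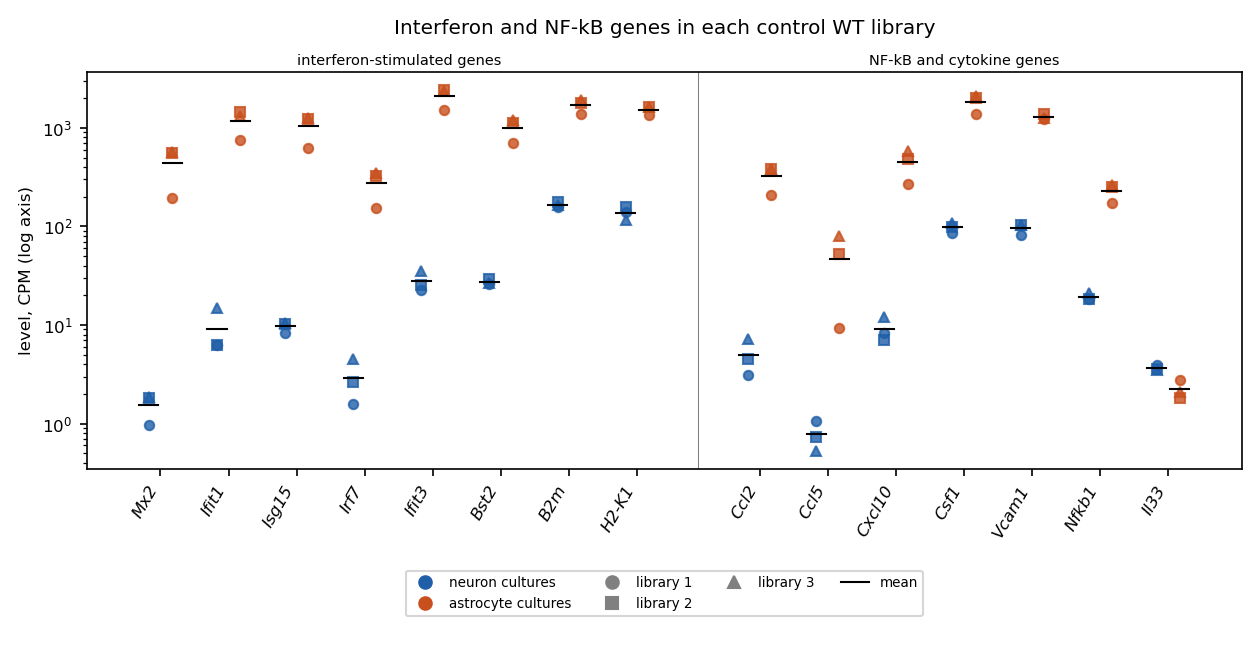
Level (y axis, CPM, log axis) of 8 interferon-stimulated genes and 7 genes of NF-kB and cytokine signalling in each control WT neuron library (blue) and astrocyte library (orange), with a bar at the mean. Every interferon-stimulated gene shown is higher in all 3 astrocyte libraries, with astrocyte library 1 the lowest of its group, and only Il33 is higher in the neuron libraries.

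Cholesterol synthesis ran the other way. Of 28 tested genes (of 29 listed), 25 were higher in neurons, against 35.8% of all genes, 2 were higher in astrocytes and 1, Srebf1, did not pass, with a median log2 difference of 1.98. The summed level was 5936, 5809 and 5848 CPM in neurons and 2472, 2514 and 2260 CPM in astrocytes. Hmgcs1, the synthase of an early step, had 1018, 953 and 1118 CPM against 197, 176 and 169 CPM (2.51, SE 0.12, adjusted p = 2.03e-07), and squalene epoxidase (Sqle) had 392, 388 and 377 CPM against 120, 101 and 109 CPM (1.81, SE 0.11). The 2 cultures did not overlap for either of these enzymes, as for 75.8% of all genes. Srebf2, the transcription factor that drives the pathway, differed by 1.48 and the neuronal cholesterol hydroxylase Cyp46a1 by 2.57. The 2 genes higher in astrocytes were the cholesterol exporter Abca1, with 153, 177 and 251 CPM against 803, 933 and 699 CPM (-2.07, SE 0.20, adjusted p = 1.59e-05), and the sterol sensor Scap (-0.40). Another exporter of the list, Abcg1, was higher in neurons (3.34, SE 0.19, adjusted p = 6.09e-07), so that the exporters had no common direction.

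Energy metabolism was also uneven. Of 35 tested nuclear genes of the respiratory chain, 33 were higher in neurons and 0 in astrocytes, with a median of 1.04, and 11 of the 13 protein-coding genes of mitochondrial DNA were higher in neurons (median 1.19). The cytochrome oxidase subunit mt-Co1 had 15880, 12820 and 15150 CPM in neurons and 7813, 8132 and 5752 CPM in astrocytes, without overlap. Of 27 glycolysis and lactate genes, 17 were higher in neurons (63.0%, against 35.8% of all genes) and 6 in astrocytes (22.2%, against 35.2%). The isozymes and carriers were split by cell type. The neuronal glucose transporter Slc2a3 had 310, 307 and 306 CPM against 13, 14 and 12.3 CPM (4.55, SE 0.12), and the lactate importer of neurons Slc16a7 differed by 3.36. Hexokinase Hk2 had 6.97, 7.66 and 6.51 CPM against 63.6, 98.1 and 107 CPM (-3.66, SE 0.22), while Hk1 differed by 1.46. The glial carriers Slc2a1 and Slc16a1 were higher in astrocytes (-0.57 and -1.40).

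Whether the cell type differences held in Perk KO cultures was read from the Perk KO control libraries. These still held Eif2ak3 reads, at 5.22 to 5.86 CPM in neurons and 5.92 to 7.59 CPM in astrocytes. They also differ from WT in active Cre and in markers such as Pdgfra, at 4.4 to 6.8 CPM in Perk KO neurons against 32.1 to 60.8 CPM in WT neurons. Loss of Perk, active Cre and the make-up of the cultures cannot be told apart here. Of the 11044 WT calls that could be tested in the Perk KO libraries, 94.0% kept their direction and 81.0% were called again. A fit of 12 control libraries with a cell type by genotype term, added after the data had been seen, called 3231 of 15938 genes (20.3%). The neuron minus astrocyte difference was lower in WT than in Perk KO for 1892 of these (11.9% of genes tested) and higher for 1339 (8.4%). The count moved to between 1790 and 4102 when 1 library was left out, and it was over 1.5 times smaller without WT neuron library 1 (1956), WT astrocyte library 2 (1790) or 3 (2000), or Perk KO neuron library 2 (2012) or 3 (1794).

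For PERK targets the cell type difference depended on genotype, with 17 of the 19 that could be fitted called for the term, 16 of them with the lower difference in WT (11.9% of all genes) and 1, Ddit4, with the higher one. In Perk KO libraries their sum was 923, 881 and 874 CPM in neurons, about the WT neuron level, and 954, 1255 and 1378 CPM in astrocytes. Levels of the 2 genotypes were scaled separately and are set side by side only. Trib3 had 5.34, 3.74 and 4.14 CPM in Perk KO neurons and 5.92, 15.3 and 19.2 CPM in Perk KO astrocytes, so that its difference was -1.60 there and -3.89 in WT (term -2.31, SE 0.46, adjusted p = 0.00602). Chac1 had 24.1, 25.1 and 19.5 CPM against 11.9, 29.8 and 35.1 CPM, groups that overlapped (difference -0.16, adjusted p = 0.66; term -2.25, SE 0.43, adjusted p = 0.00553). For Asns the Perk KO libraries separated where WT libraries had overlapped, with 188, 171 and 165 CPM in neurons and 34.1, 65.3 and 81.3 CPM in astrocytes (difference 1.54; term -1.50, SE 0.34, adjusted p = 0.0108). Slc7a11 turned from a WT difference of -2.46 to 1.58 (term -4.06, SE 0.46, adjusted p = 0.000947).

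The same term was called, with the lower difference in WT, for 9 of 13 amino acid transporters, 15 of 20 aminoacyl-tRNA synthetases, 21 of 28 interferon-stimulated genes and 18 of 22 NF-kB and cytokine genes, against 11.9% of all genes. Interferon-stimulated genes still had a median of -3.44 in Perk KO libraries, where 28 of 28 were higher in astrocytes. Isg15 had 8.95, 14.8 and 13.5 CPM in Perk KO neurons and 194, 462 and 465 CPM in Perk KO astrocytes (difference -4.92; term -1.85, SE 0.47, adjusted p = 0.0176, or 0.0502 without WT neuron library 1). Ccl2 had 5.53, 7.95 and 7.66 CPM against 32.3, 58.8 and 60.7 CPM (difference -2.85; term -3.23, SE 0.46, adjusted p = 0.0025). In the opposite direction, 23 of 28 cholesterol genes were called for the term and 0 of them had the lower difference in WT, against 8.4% of all genes with the higher one. Of the chaperones 6 of 24 were called for the term in either direction, near the 20.3% of all genes. For Hspa5 (-0.82 in Perk KO) the adjusted p of 0.0484 was lost when any of 10 of the 12 libraries was left out.

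**Figure D5:**
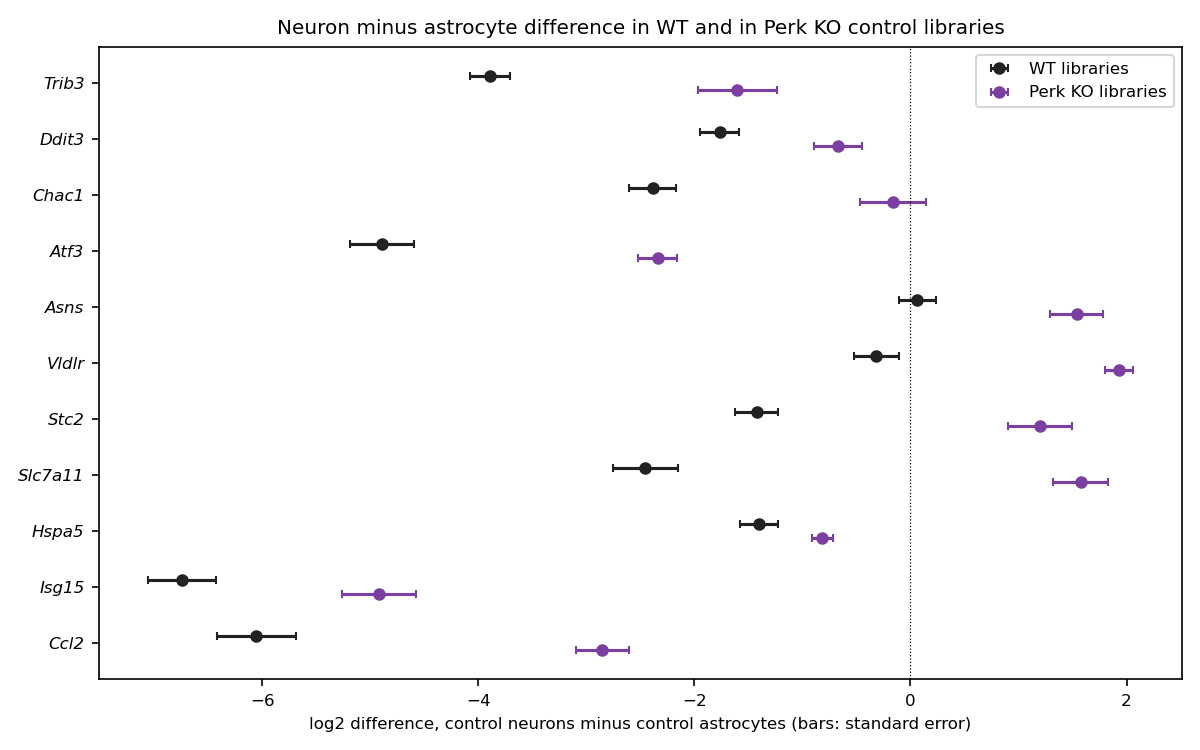
Log2 difference (x axis, neurons minus astrocytes, bars: standard error, 3 against 3 libraries) of 11 genes in control WT libraries (black) and control Perk KO libraries (purple). Trib3, Chac1 and Atf3 are further below 0 in WT, and Stc2 and Slc7a11 lie on opposite sides of 0.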

How the data were processed

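RNA was extracted with TRI Reagent, libraries were made with an unstranded NEBNext Ultra kit and sequenced in pairs on a NovaSeq 6000, per the labels' protocols. The authors deposited raw read counts per gene. Per the submitters' processing notes, fastp, HISAT2, featureCounts and DESeq2 were used with genome build GRCm38.p6, and versions are not given in the sources used here. Since the kit does not mark strand, reads of overlapping genes cannot be told apart, and those of near-identical copies are uncertain.

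The deposited counts of 3 WT control neuron and 3 WT control astrocyte libraries were joined on gene identifier (31260 genes, 0 entries naming no gene). A further 54 columns of per-sample values were not used. Genes averaging 10 counts or more were fitted with edgeR 4.0.16 (R 4.3.3): TMM factors, the quasi-likelihood test on 4 residual degrees of freedom, Benjamini-Hochberg adjustment, threshold 0.05. FPKM were computed from TMM-scaled CPM and the deposited gene length. Counts were also simulated over 15819 genes, of which 100 were changed 2-fold and 100 were changed 4-fold, with the same dispersion for every gene. There 84% of 2-fold and 97% of 4-fold changes were recovered with 6 false calls. Far more genes differed in the real libraries, so these rates do not measure recovery or false calls in this comparison. Alternatives were DESeq2 1.42.0, other scalings, no count filter, GC correction in 20 bins, a replicate block, each library left out and the Perk KO controls. The cell type by genotype term and the libraries left out of it were added after the data had been seen. Counting error alone limits a level of 0 to 3 counts, or 0.187 CPM in the shallowest library.

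The members and lists were chosen with earlier results of these data known. Of 1029 list entries, 1019 were found. Genes were named by this rule: fixed genes of identity (Aqp4, Gfap, Rbfox3, Rest, Tubb3), of eIF2 signalling (Eif2ak3, Eif2b5, Asns, Atf4, Chac1, Ddit3, Trib3) and of ER folding (Dnajb9, Herpud1, Hsp90b1, Hspa5, Sdf2l1, Xbp1), the 12 largest differences in each direction among protein-coding genes that passed, did not overlap and averaged 100 counts or more, all members of lists of up to 20, and of longer lists the 3 highest per length, the 5 largest among those called and up to 5 members called against the majority. Further members are named for a known role, chosen after their values were seen. Promoters of RefSeq on GRCm38.p6 were searched in the 250 bases before the start, on both strands, and are shown with 40 bases on each side of the match nearest the start, as far as the window reaches. A few genes are not reported here.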

Additional observations from a re-analysis of the deposited data

Results flagged for a closer look

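For 11 genes the neuron minus astrocyte difference depended on genotype by the cell type by genotype term over 12 control libraries (edgeR's quasi-likelihood test, 8 residual degrees of freedom), a fit added after the data had been seen. The term is the WT difference less the Perk KO difference on the log2 scale. It was -4.06 for the cystine transporter Slc7a11, -3.23 for the chemokine Ccl2, -2.65 for the secreted glycoprotein Stc2, -2.58 for Atf3, -2.31 for Trib3, -2.27 for the lipoprotein receptor Vldlr, -2.25 for Chac1 and -1.50 for Asns, and for these 8 genes the call held whichever of the 12 libraries was left out. It was -1.85 for Isg15, lost without WT neuron library 1 (adjusted p = 0.0502), -1.12 for Ddit3, lost without any of 5 libraries, and -0.61 for Hspa5, lost without any of 10.

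Stc2 had 14.1, 19.4 and 18.7 CPM in WT neurons and 35.1, 50.7 and 54.1 CPM in WT astrocytes, against 17.6, 20.8 and 26.3 CPM in Perk KO neurons and 4.68, 11.5 and 12 CPM in Perk KO astrocytes. Vldlr had 67.0, 61.2 and 95.2 CPM in WT neurons and 69.4, 105 and 103 CPM in WT astrocytes, against 113, 104 and 121 CPM in Perk KO neurons and 24.2, 30.9 and 33.9 CPM in Perk KO astrocytes. Both genes were thus higher in neurons in Perk KO libraries only. The causes were not tested.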

How the results depend on the processing

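The 11244 calls and their 2 directions stayed within 1.5 times under every alternative run, from 10181 to 11169 with 1 library left out, and were 11211 with DESeq2, 12513 without a count filter and 11107 in the Perk KO controls. The same-numbered libraries share only a number (correlations of their deviations 0.12, -0.08 and -0.01), and a replicate block gave 10874 calls. Scaling by library totals moved the median of all genes to -0.22 and upper quartile factors to -0.14. Library totals gave 3 degradation genes, 5 translation factors and 8 proteasome subunits higher in neurons and 40 ribosomal protein genes higher in astrocytes; upper quartile factors gave 4 degradation genes and 6 translation factors. GC correction gave 5, 8 and 39 for degradation, translation and ribosomal genes, and turned Olig1 to -0.24 and Atg3 to 0.18. Without a count filter 6 monoamine and acetylcholine genes were higher in neurons, and 11 microglia and 6 endothelial markers in astrocytes. With 1 library left out, the ranges were 3 to 5 for monoamine and acetylcholine genes, 3 to 9 for microglia markers, 4 to 7 for degradation genes, 7 to 13 for translation factors, 9 to 20 for ribosomal protein genes and 1790 to 4102 for genes called for the cell type by genotype term.

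In the Perk KO controls, over the members tested in that fit, 5 monoamine and acetylcholine genes, 3 oligodendrocyte markers, 4 degradation genes and 6 proteasome subunits were higher in neurons. Higher in astrocytes there were 2 microglia markers (2 others were higher in neurons, and the list's median turned to 0.29), 22 cell cycle genes, 5 eIF2 and eIF2B subunits, 3 amino acid transporters, 4 serine and one-carbon enzymes, 4 aminoacyl-tRNA synthetases and 6 ribosomal protein genes. Single differences that changed sign there were those of Atf4 (0.74), Calr (-0.17), Col1a1 (1.41), Col3a1 (0.99), Cpe (-0.31), Ddit4 (-0.54), Dnajb9 (0.029), Eif2ak3 (-0.30), Eif2b3 (0.12), Hyou1 (-0.068), Olig1 (-0.17), Pdia6 (-0.51), Rorb (0.27), Sdf2l1 (-0.52), Slc7a11 (1.58), Srgn (1.37), Stc2 (1.20) and Vldlr (1.93). The causes of these changes were not tested.

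As a percentage of the neuron level, astrocyte cultures held 5.95 of pan-neuronal markers under library totals and 5.82 without the most abundant marker. The same 2 values were 62.2 and 28.0 for glutamatergic, 2.80 and 3.26 for GABAergic, 83.7 and 66.0 for oligodendrocyte, 341 and 347 for mural and 241 and 119 for progenitor genes. Without the most abundant marker they were 164 for endothelial, 314 for ependymal and 269 for choroid plexus markers. Depth limits the low markers above all, since those under a mean of 10 counts were not tested.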

Other observations

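Genes induced by neuronal activity were divided in the unstressed cultures. Of 18 tested immediate early genes, 10 were higher in neurons (55.6%, against 35.8% of all genes) and 5 in astrocytes (27.8%, against 35.2%). Arc, a postsynaptic regulator, had 81.6, 73.6 and 63.1 CPM in neurons and 4.28, 14.5 and 15.9 CPM in astrocytes (log2 difference 2.66), and Egr3, Egr4 and Npas4 differed by 6.26, 6.35 and 4.01. The 5 higher in astrocytes were Jun (-1.60), Junb (-1.67), Ier2 (-1.91), Fosl2 (-1.34) and the phosphatase Dusp1 (-1.29). Fos itself was higher in neurons (0.94). Of 14 tested BCL2 family genes, 4 were higher in neurons (28.6%, against 35.8% of all genes) and 7 in astrocytes (50%, against 35.2%). Those in neurons included the BH3-only gene Hrk, with 74.5, 80.3 and 70.8 CPM against 2.19, 5.22 and 4.66 CPM. Those in astrocytes included Pmaip1 (Noxa), with 16.7, 14.7 and 17.9 CPM against 94.9, 163 and 162 CPM, and the effector Bax (-1.01). The libraries of the 2 cultures did not overlap for Hrk or Pmaip1, as for 75.8% of all genes.

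Of 32 genes of autophagy and lysosomes, 9 were higher in neurons (28.1%, against 35.8% of all genes) and 17 in astrocytes (53.1%, against 35.2%). The initiator Ulk1 (0.72), Atg13 (0.88), the ubiquitin-like Atg12 (1.02) and Map1lc3a (2.38) and the lysosomal channel Mcoln1 (1.17) were higher in neurons, and Atg3 (-0.60), Atg7 (-0.37), Wipi1 (-0.40), the lysosomal membrane protein Lamp2 (-1.76), the proteases Ctsb (-1.06) and Ctsz (-1.59) and the regulator Tfeb (-1.57) in astrocytes. The call of Atg7 was lost without neuron library 1 (-0.36) or 2 (-0.35), and that of Wipi1 without neuron library 2 (-0.39) or 3 (-0.31). Of 24 cell cycle genes, 10 were higher in astrocytes (41.7%, near the 35.2% of all genes) and 3 in neurons (12.5%, against 35.8%). The 10 were led by the inhibitors Cdkn1a (219, 203 and 182 CPM against 769, 1016 and 1098 CPM) and Cdkn2a (-2.05). The proliferation marker Mki67 had 5.69, 5.16 and 13.7 CPM against 12.7, 13.4 and 5.27 CPM, with overlapping groups.

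The 4 Y-linked genes tested were higher in the astrocyte cultures. Ddx3y had 14.5, 6.10 and 20.5 CPM in the neuron libraries and 52.7, 66.3 and 58.4 CPM in the astrocyte libraries (-2.12), and Uty, Eif2s3y and Kdm5d differed by -2.30, -1.24 and -1.04. The X-linked genes Xist and Tsix were too low to be tested. They had 3 and 3 counts over the neuron libraries and 2 and 1 over the astrocyte libraries. The labels used here do not give the sex of the animals, and the cause of the difference was not tested.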
